A study of Mus musculus with 12 samples.

Results

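Lcn2, Saa3, Hp, Cp, C3 and C1ra encode secreted proteins of the acute-phase response and of complement. The 6 genes were chosen by their adjusted p-values and fold changes in 2 contrasts and are taken by name from the 2 deposited tables of AML12 cells, a mouse hepatocyte line derived from a mouse transgenic for TGF-alpha. The tables list 2600 genes in all, of which 257 are in both. The plasmid table, with 707 genes, holds 6 of the 6. The siRNA table, with 2150 genes, holds 5, and Saa3 is the absent one. RNA was sequenced from 3 libraries in each of 4 groups: cells transfected with a GFP-DUSP6 plasmid or, as its control, a GFP plasmid and harvested after 24 h, and cells transfected with a DUSP6-specific siRNA (siDUSP6) or, as its control, a negative-control siRNA (NC) and harvested after 48 h. The control groups were transfected too, all of them by lipo2000, and every group grew in medium with serum, dexamethasone (a glucocorticoid) and ITS. DUSP6 is a phosphatase that inactivates the MAP kinase ERK, and the design asks which transcripts change when its amount is raised or lowered. Nothing in the labels says that the replicates were separate cultures, so the spread between libraries may be technical.

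In the acute-phase response the liver changes its output of plasma proteins after infection or injury. Interleukins 1 and 6 drive it through NF-kB, C/EBP and STAT3, and glucocorticoids strengthen it. Positive acute-phase genes rise and negative ones, such as that of albumin, fall. Lipocalin 2 binds bacterial iron carriers, haptoglobin binds free haemoglobin, ceruloplasmin carries copper and oxidises iron, serum amyloid A3 is an apolipoprotein of inflamed tissue, C3 is the protein on which the complement pathways converge, and C1r is the protease that activates C1s in the classical pathway.

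Each table lists genes selected for their p, so being listed is itself a readout and the levels of the 6 genes are given as a description, without a test. A gene is called where the authors' deposited table gives it an adjusted p under 0.05. By that rule the plasmid contrast called 4.61% of 12592 tested genes (3.39% higher and 1.22% lower in GFP-DUSP6), and the siRNA contrast called 15.0% of 13102 (7.76% higher and 7.19% lower in siDUSP6). After re-scaling over the listed genes alone the share of higher calls was 26.8% (TMM) or 22.0% (median of ratios) in the plasmid contrast, against 75.6% with the recovered size factors, and 40.4% or 33.9% in the siRNA contrast, against 53.0%. The listed genes were selected as changed, mostly higher ones in the plasmid contrast. Here and below this scaling therefore lowers fold changes and is no neutral check. All 6 genes were called higher with GFP-DUSP6, while 2 were called higher and 3 lower with siDUSP6. These counts follow from how the genes were chosen. The same holds largely for the lack of overlap between groups described below. How many of all listed genes have groups without overlap was not counted. The called gene nearest the threshold was C1ra in the siRNA contrast, with an adjusted p of 0.0393 in the authors' deposited table, and outside it stood Saa3, which that table does not list. Its level after siRNA was not analysed here.

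The targeted gene was checked first. Dusp6 had 2445, 2537 and 2285 counts in the libraries labelled GFP-DUSP6, against 3216, 3112 and 3451 in the GFP libraries, so the count goes against the label of the overexpressing group. It had 1770, 1905 and 1771 counts in the siDUSP6 libraries, against 4047, 3752 and 3888 in NC. The labels do not say whether transcripts of the plasmid entered the counts, so directions below are those of the libraries labelled GFP-DUSP6. Sums over listed genes were 1303866 to 1531091 counts per library (plasmid) and 3500977 to 4078892 (siRNA), which are not full depths. Size factors recovered from the deposited values lay between 0.94 and 1.05. In whole-culture RNA, more transcript per cell and more cells of one kind cannot be told apart.

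Lcn2 and Saa3 had the largest differences of the 6 genes in the plasmid contrast. Lcn2 (chromosome 2, 32384633 to 32388252, minus strand, mm10) had 951, 1245 and 1578 counts in the libraries labelled GFP-DUSP6, against 72, 74 and 56 in the GFP libraries. Every GFP-DUSP6 library lay far above every GFP library, and replicate 3 was the highest of the GFP-DUSP6 libraries and the lowest of the GFP libraries. After division by size factors the means were 1220 ± 291 and 69.6 ± 12.4 normalized counts in GFP-DUSP6 and GFP (SD, n = 3 each), a 17.5-fold difference and a log2 fold change of 4.13 ± 0.18 (SE). Among the 427 genes called higher, Lcn2 ranked 1 by log2 fold change in the authors' deposited table.

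After siRNA, Lcn2 had 83, 116 and 79 counts in the siDUSP6 libraries, against 45, 51 and 56 in NC. The groups did not overlap, but the gap was narrow and siDUSP6 replicate 2 stood above the other siDUSP6 libraries. The means were 90.8 ± 18.0 normalized counts in siDUSP6 and 51.2 ± 5.26 in NC (SD, n = 3 each), and the log2 fold change was 0.83 ± 0.21 (SE). Lcn2 was thus higher in both contrasts, which share no library, and the difference between its changes was not tested.

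Saa3 (chromosome 7, 46711998 to 46715700, minus strand) was a low-count gene with a large difference. It had 138, 122 and 151 counts in the libraries labelled GFP-DUSP6, against 23, 10 and 10 in the GFP libraries. GFP replicate 1 stood apart from the other GFP libraries and still lay far below the lowest GFP-DUSP6 library. The means were 133 ± 15.2 and 14.8 ± 7.81 normalized counts in GFP-DUSP6 and GFP (SD, n = 3 each), and the log2 fold change was 3.16 ± 0.27 (SE). Without GFP replicate 1 it was 3.68. Of the 50-base words of its annotated transcripts, 4.15% also occur in other genes. Saa3 is also known from macrophages, and 0 of 22 macrophage and leukocyte markers (among them Adgre1, Cd68, Csf1r and Ptprc) were listed in either table, so their levels were not analysed here. Macrophage genes outside these 22 were not counted. Among those, Mrc1, a mannose receptor gene, was called higher in both contrasts.

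**Figure D1:**
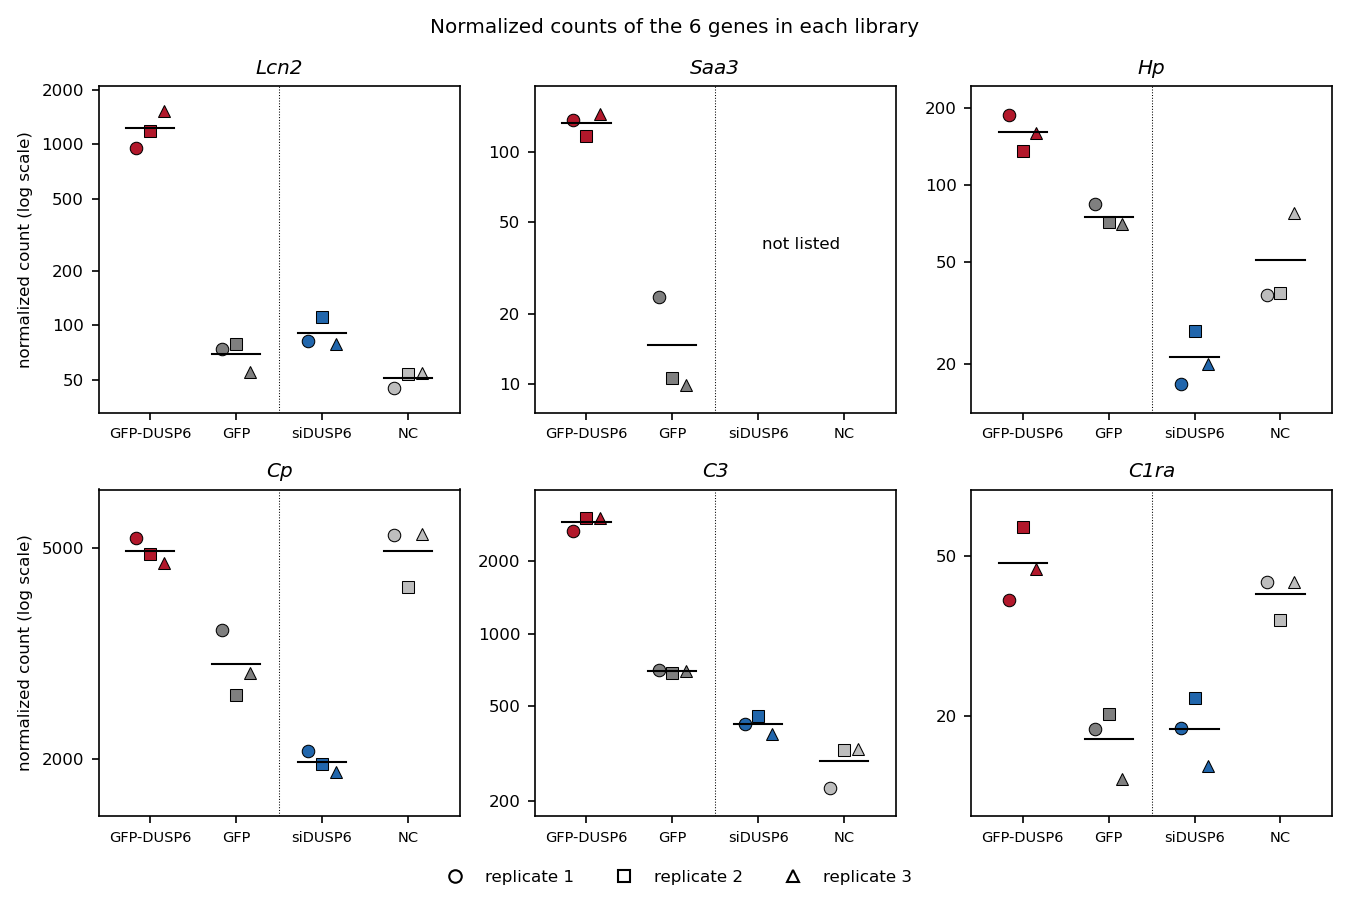
Normalized counts (log scale) of the 6 genes, 1 panel per gene, with 1 point per library, the marker giving the replicate number and the bar the mean of 3 libraries. In every panel the GFP-DUSP6 points lie above the GFP points. The siDUSP6 points lie above NC for Lcn2 and C3 and below NC for Hp, Cp and C1ra, and Saa3 is not listed in the siRNA table. Separate groups follow largely from the choice of genes by adjusted p.

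Hp and Cp encode plasma carrier proteins made by hepatocytes, and both were higher with GFP-DUSP6 and lower with siDUSP6. Hp (chromosome 8, 109575128 to 109579172, minus strand) had 188, 142 and 165 counts in the libraries labelled GFP-DUSP6, against 81, 67 and 71 in the GFP libraries. The lowest GFP-DUSP6 library was well above the highest GFP library. The means were 161 ± 25.8 and 75.1 ± 7.52 normalized counts in GFP-DUSP6 and GFP (SD, n = 3 each), a 2.14-fold difference and a log2 fold change of 1.09 ± 0.17 (SE).

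After siRNA, Hp had 17, 28 and 20 counts in the siDUSP6 libraries, against 37, 36 and 79 in NC. The groups did not overlap, and NC replicate 3 stood well above the other NC libraries. The means were 21.2 ± 5.21 normalized counts in siDUSP6 and 50.7 ± 22.9 in NC (SD, n = 3 each). The log2 fold change was -1.25 ± 0.36 (SE), and -0.81 without NC replicate 3, so the size of the difference rests in part on that library.

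Cp (chromosome 3, 19957054 to 20009145, plus strand) had 5256, 5102 and 4841 counts in the libraries labelled GFP-DUSP6, against 3384, 2481 and 2933 in the GFP libraries. The GFP-DUSP6 libraries lay close together, while the GFP libraries were spread more widely. The means were 4926 ± 280 and 3015 ± 441 normalized counts in GFP-DUSP6 and GFP (SD, n = 3 each). The log2 fold change was 0.71 ± 0.08 (SE), the smallest of the 6 in this contrast.

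After siRNA, Cp had 2098, 2036 and 1882 counts in the siDUSP6 libraries, against 5283, 4010 and 5446 in NC. Even the highest siDUSP6 library lay far below the lowest NC library. The means were 1970 ± 89.9 normalized counts in siDUSP6 and 4946 ± 632 in NC (SD, n = 3 each), and the log2 fold change was -1.33 ± 0.09 (SE). Exons of Hps3 on the opposite strand overlap those of Cp. Hps3 is in neither table and shares 0.618% of the 50-base words of Cp.

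C3 and C1ra represent complement. C3 (chromosome 17, 57203970 to 57228136, minus strand) had 2691, 3189 and 3130 counts in the libraries labelled GFP-DUSP6, against 685, 646 and 704 in the GFP libraries. Each group was tight, with a coefficient of variation of 7.08% in GFP-DUSP6 and 1.52% in GFP. The means were 2915 ± 206 and 698 ± 10.6 normalized counts in GFP-DUSP6 and GFP (SD, n = 3 each), a 4.18-fold difference and a log2 fold change of 2.06 ± 0.07 (SE). By adjusted p in the authors' deposited table C3 ranked 2, Lcn2 3, Saa3 16, Cp 22, Hp 156 and C1ra 395 of the 580 called genes.

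After siRNA, C3 had 428, 471 and 382 counts in the siDUSP6 libraries, against 226, 311 and 338 in NC. The lowest siDUSP6 library was only a little above the highest NC library, and NC replicate 1 was the low one of its group. The means were 419 ± 35.2 normalized counts in siDUSP6 and 295 ± 59.0 in NC (SD, n = 3 each), and the log2 fold change was 0.51 ± 0.15 (SE).

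C1ra (chromosome 6, 124512405 to 124523443, plus strand) was a low-count gene, with 39, 62 and 48 in the libraries labelled GFP-DUSP6, against 18, 19 and 14 in the GFP libraries. The groups did not overlap, with replicate 2 the highest in both. The means were 48.1 ± 10.3 and 17.6 ± 3.31 normalized counts in GFP-DUSP6 and GFP (SD, n = 3 each), and the log2 fold change was 1.46 ± 0.29 (SE). In the siRNA contrast it had 19, 23 and 15 counts with siDUSP6, against 43, 33 and 44 in NC. All siDUSP6 libraries were below all NC libraries. The means were 18.6 ± 3.55 normalized counts in siDUSP6 and 40.3 ± 4.83 in NC (SD, n = 3 each), and the log2 fold change was -1.11 ± 0.28 (SE). The neighbouring paralog C1rb and the locus Gm18840 share 50.8% of the 50-base words of C1ra, so its reads cannot be assigned to 1 copy with certainty. C1rb is in neither table.

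**Figure D2:**
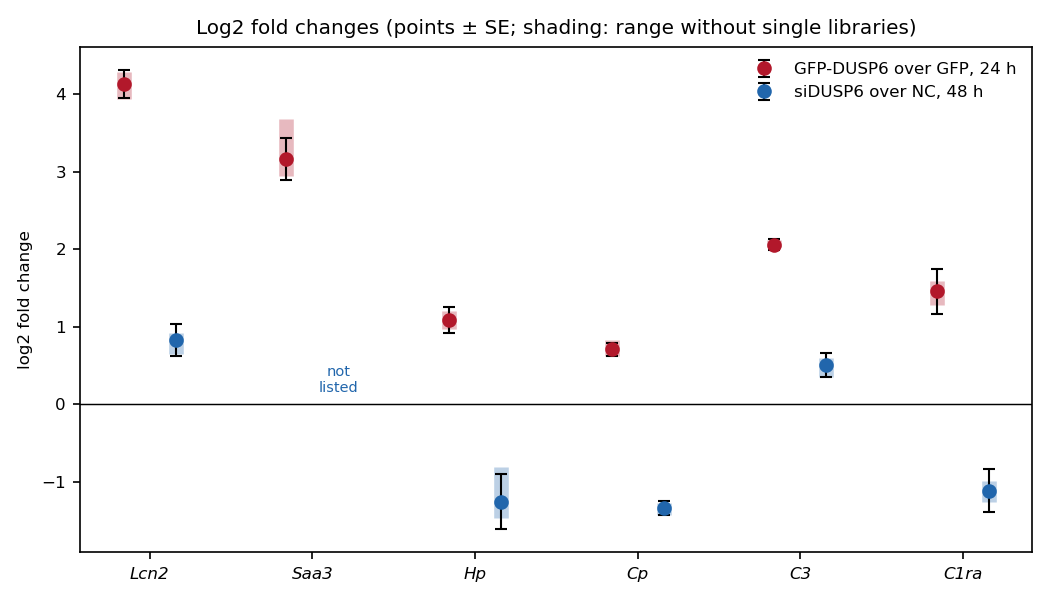
Log2 fold changes of the 6 genes (points, ± SE, edgeR refit) for GFP-DUSP6 over GFP in red and siDUSP6 over NC in blue, with shading for the lowest to the highest value when single libraries are left out. The red points lie between 0.71 and 4.13 and the blue ones between -1.33 and 0.83, with Hp, Cp and C1ra on opposite sides of 0 in the contrasts.

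The 5 genes listed in both tables thus fall into those with opposite signs (Hp, Cp, C1ra) and those higher in both (Lcn2, C3). Leaving out single libraries turned no sign, which was fixed beforehand because the groups of each gene do not overlap. The genes were chosen in these same libraries, so passing a refit is no support and shows only how far a call depends on single libraries. In the plasmid contrast 5 of the 6 genes kept an adjusted p under 0.05 in each of the 6 edgeR refits with a library fewer. For C1ra it was 0.0638 without GFP-DUSP6 replicate 2 and it also passed 0.05 without GFP replicate 3. In the siRNA contrast Cp stayed under the threshold in each of 6 such refits, Lcn2 in 3, and Hp, C3 and C1ra in 1 each. The largest adjusted p was 0.184 for Lcn2 and 0.203 for C3, both without siDUSP6 replicate 2, 0.216 for Hp without NC replicate 3 and 0.102 for C1ra without siDUSP6 replicate 3.

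The position of the genes among all listed ones differed between the contrasts. By log2 fold change in the authors' deposited table, Lcn2, Saa3, C3, C1ra, Hp and Cp ranked 1, 5, 11, 15, 29 and 71 of the 427 genes called higher in the plasmid contrast. In the siRNA contrast Lcn2 and C3 ranked 217 and 369 of 1017 called higher in the authors' deposited table. Cp, Hp and C1ra ranked 43, 51 and 67 from the lowest of 942 called lower there.

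**Figure D3:**
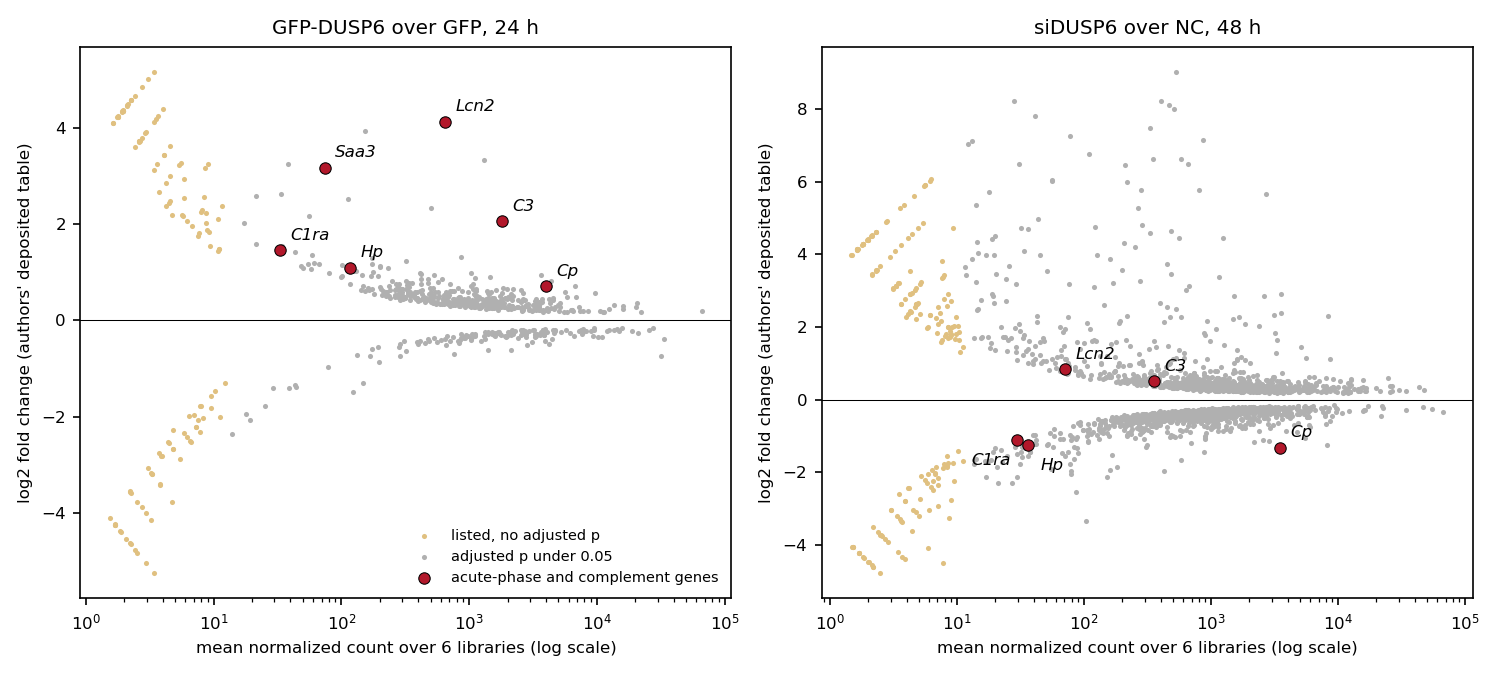
Log2 fold change in the authors' deposited table against the mean normalized count over 6 libraries (log scale) for every listed gene, left for GFP-DUSP6 over GFP and right for siDUSP6 over NC, with the acute-phase and complement genes in red. In the left panel Lcn2 (4.13), Saa3 (3.17) and C3 (2.06) stand above most genes of like count; in the right panel Cp (-1.33) stands below them, and Lcn2 (0.83) and C3 (0.51) lie at the edge of the listed genes.

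Levels were compared between genes per kilobase of annotated exons. In the libraries labelled GFP-DUSP6, C3 had a level of 567 ± 40.1 normalized counts per kilobase, Cp 515 ± 29.2 and Lcn2 465 ± 111 (SD, n = 3 each), and the ranges of these genes overlapped. Hp followed with 84.4 to 116, Saa3 at 51.1 ± 5.82 and C1ra at 16.1 ± 3.45, each range separate from the next. In the GFP libraries Cp led with 315 ± 46.1, then C3 with 136 ± 2.06, Hp with 46.8 ± 4.68 and Lcn2 with 26.5 ± 4.73, while C1ra at 5.89 ± 1.11 and Saa3 at 5.67 ± 3.00 overlapped. Lcn2 thus stood among the most abundant of the 6 genes in GFP-DUSP6 and behind Cp, C3 and Hp in GFP.

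In the siDUSP6 libraries the order of levels was Cp (206 ± 9.39 normalized counts per kilobase), C3 (81.5 ± 6.85), Lcn2 (34.6 ± 6.88), Hp (13.2 ± 3.24) and C1ra (6.25 ± 1.19), with no overlap between neighbours. In NC it was Cp (517 ± 66.1), C3 (57.3 ± 11.5), Hp (31.6 ± 14.3), Lcn2 (19.5 ± 2.00) and C1ra (13.5 ± 1.62), where C3 and Hp overlapped. Hp and Lcn2 thus changed places between siDUSP6 and NC. The length matters most for Lcn2, whose annotated exons cover 2623 bases and whose longest coding transcript has 915. Per kilobase of that transcript Lcn2 had a level of 1333 ± 318 in GFP-DUSP6, above C3, and 76.0 ± 13.6 in GFP, beside Hp at 55.9 ± 5.59, whose range it overlapped. By that length Lcn2 also stood above Hp in NC, at 55.9 ± 5.75 and 37.7 ± 17.1 with overlapping ranges, so the exchange of places with Hp depends on the length used. Other orders depend on it too. Per kilobase of the longest coding transcript Cp was at 1079 ± 61.3 and C3 at 568 ± 40.2 in GFP-DUSP6, with separate ranges. In siDUSP6 Lcn2 was at 99.2 ± 19.7 and C3 at 81.6 ± 6.86 by that length, with overlapping ranges. The tables were normalized separately, so levels are not compared across them.

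**Figure D4:**
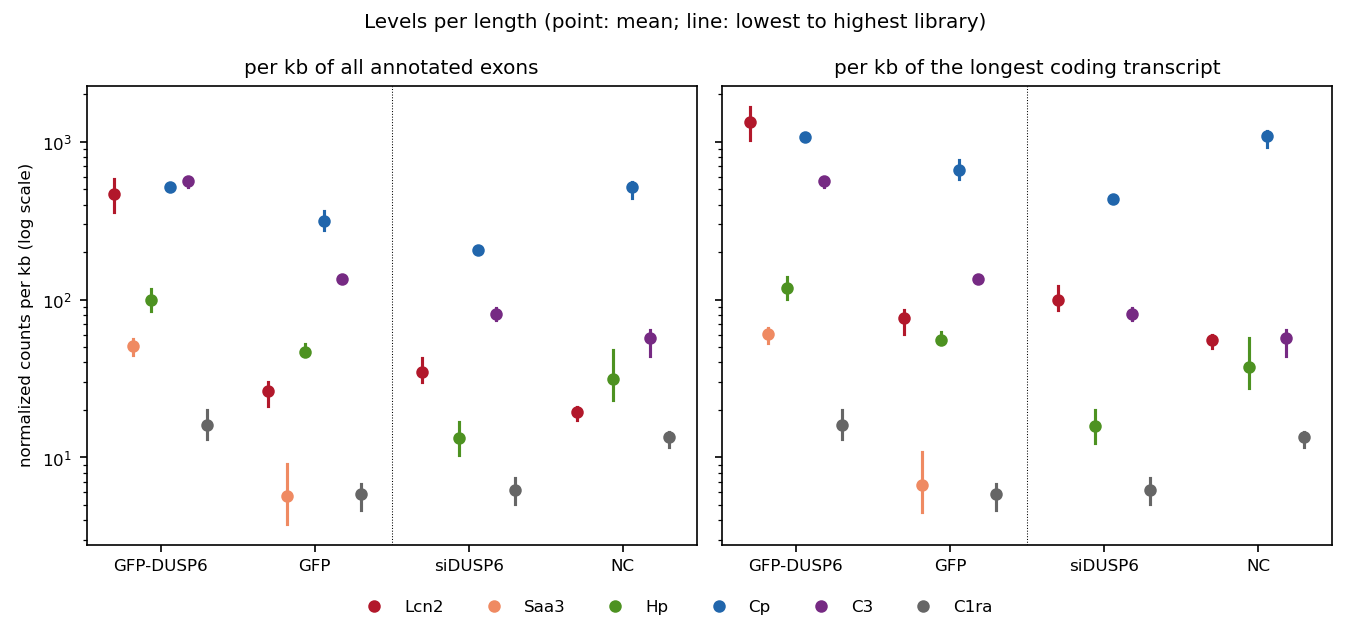
Normalized counts per kilobase (log scale) of each gene by group, on the left over all annotated exons and on the right over the longest coding transcript, with points for means and lines from the lowest to the highest of 3 libraries. Cp is at or near the top in every group and C1ra near the bottom, and on the left Lcn2 is at 465 in GFP-DUSP6 and at 26.5 in GFP.

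The sequences before the start sites of Lcn2, Saa3, C3 and Cp are shown because Lcn2, Saa3 and C3 had the largest changes of the plasmid contrast and Cp the smallest adjusted p of the siRNA contrast among the 6 genes. They are the 250 bases upstream of a RefSeq transcript start (GRCm38.p6), 5′ to 3′ on the gene's strand: chr2:32387740-32387989 (minus) for Lcn2, chr7:46715677-46715926 (minus) for Saa3, chr17:57228137-57228386 (minus) for C3 and chr3:19956999-19957248 (plus) for Cp, 1 of 2 starts. RefSeq windows were matched for 5 of the 6 genes, all but Hp. The RefSeq starts differ from the GENCODE gene spans given above. The Lcn2 window lies wholly inside the span of Lcn2, and the Saa3 window and the Cp window shown overlap their genes in part. Of the windows shown only that of C3 lies outside its gene. Capitals mark matches, on either strand, to patterns for NF-kB (GGGA, then any 4 bases, then CC), C/EBP (TTNNGNAA), STAT factors (TTCNNNGAA), IRF factors (GAAA, then any 2 bases, then GAAA) and AP-1 (TGANTCA).
Lcn2: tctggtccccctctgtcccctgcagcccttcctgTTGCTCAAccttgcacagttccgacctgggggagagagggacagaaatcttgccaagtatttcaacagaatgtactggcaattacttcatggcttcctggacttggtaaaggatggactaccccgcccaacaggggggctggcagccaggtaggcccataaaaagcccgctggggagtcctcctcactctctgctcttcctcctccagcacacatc
Saa3: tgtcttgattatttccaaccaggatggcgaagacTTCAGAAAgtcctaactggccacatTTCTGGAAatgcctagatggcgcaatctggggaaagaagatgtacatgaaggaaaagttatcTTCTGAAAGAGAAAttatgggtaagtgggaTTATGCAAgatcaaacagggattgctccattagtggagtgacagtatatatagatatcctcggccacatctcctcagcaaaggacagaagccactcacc
C3: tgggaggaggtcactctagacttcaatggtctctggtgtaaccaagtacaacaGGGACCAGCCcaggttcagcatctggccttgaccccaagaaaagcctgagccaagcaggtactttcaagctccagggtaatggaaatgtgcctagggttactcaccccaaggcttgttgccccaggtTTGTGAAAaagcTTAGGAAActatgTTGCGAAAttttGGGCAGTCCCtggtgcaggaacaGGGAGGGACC
Cp: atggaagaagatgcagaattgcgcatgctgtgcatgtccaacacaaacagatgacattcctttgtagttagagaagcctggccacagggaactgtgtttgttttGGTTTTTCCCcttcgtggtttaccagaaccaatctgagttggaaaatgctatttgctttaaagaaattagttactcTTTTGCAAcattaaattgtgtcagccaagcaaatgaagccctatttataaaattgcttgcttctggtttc

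The C3 window held 3 NF-kB matches, first bases at -197, -33 and -10 from the start, and C/EBP matches at -70, -58 and -45. The Saa3 window held C/EBP matches at -216, -191, -129 and -99 and an IRF match at -125, which overlaps the C/EBP match at -129. The Lcn2 window held a single C/EBP match at -216, and the Cp window an NF-kB match at -146 and a C/EBP match at -70. Of all 32851 windows of this length, 17.6% hold the NF-kB pattern, 36.8% the C/EBP pattern, 5.38% both, 7.02% the STAT pattern, 2.98% the IRF pattern and 6.75% the AP-1 pattern. The C1ra window held C/EBP matches at -72 and -29. The first Cp window held a C/EBP match at -206 and an AP-1 match at -177. These are matches of letters and not sites of binding.

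The other genes of the response were counted in 6 lists, leaving out the 6 genes above. List shares are over genes matched to an identifier, tested or not, because which unlisted genes were tested is not known. They can be too low beside the share of all tested genes, so a share near or below it ranks no list. In the plasmid contrast 17 of the 178 genes matched to an identifier (9.55%) were called in the authors' deposited table, 15 higher and 2 lower, against 4.61% of all tested genes. Most were inducers and their signalling proteins, where 9 of 47 were higher (19.1%, against 3.39% of all tested genes) and 0 lower. The median log2 fold change of these 9 was 0.77 in the authors' deposited table. These were Nfkbia, Nfkbie, Nfkb1, Nfkb2, Relb, Rel, Nfkbiz, Bcl3 and Tnfaip3, which are subunits and regulators of NF-kB, some of them also NF-kB targets. No cytokine or receptor of the list was called, and neither were Stat3, Socs3, Cebpb and Cebpd. Without single libraries 8 or 9 passed in the edgeR refit, and 6 or 4 when scaled over the listed genes by TMM or median of ratios, with all 9 signs kept. Osmr, the oncostatin M receptor gene, is listed without an adjusted p, at 0, 0 and 0 counts in GFP-DUSP6 and 2, 3 and 5 in GFP.

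Nfkbia, which encodes the NF-kB inhibitor IkB-alpha, had 1401, 1537 and 1343 counts in the libraries labelled GFP-DUSP6, against 613, 732 and 684 in GFP. The groups stood far apart, and the log2 fold change was 0.99 ± 0.08 (SE; adjusted p = 1.67e-21 in the authors' deposited table, DESeq2). Tnfaip3, the gene of the NF-kB brake A20, averaged 1908 ± 74.6 normalized counts in GFP-DUSP6 and 1025 ± 11.7 in GFP (SD, n = 3 each), and Relb 1342 ± 65.1 and 788 ± 35.6.

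Other positive acute-phase genes were mostly not called in the plasmid contrast. Of 34, 2 were higher and 1 lower (8.82% of the list, against 4.61% of all tested genes). Cd14, the co-receptor for bacterial lipopolysaccharide, had a log2 fold change of 0.51 ± 0.06 and Orm1, an acid glycoprotein, of 0.65 ± 0.16 (SE). With size factors from the listed genes 0 of the list passed as higher. In 5 of the 6 refits without a library 1 passed as higher, and without GFP-DUSP6 replicate 3 0 passed as lower. Orm1 shares 20.4% of its 50-base words with Orm2 and Orm3. Saa1, Saa2, the fibrinogen genes, Hamp and Lbp were not called. Of 15 negative acute-phase genes, 28 further complement components and 24 complement regulators and receptors 0 were called. With 4.61% of all tested genes called, lists this short can hold 0 without differing from that share. C1s1, the substrate of C1r, is listed without an adjusted p, at 6, 5 and 4 counts in GFP-DUSP6 and 1, 0 and 0 in GFP.

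Iron and haem genes had 4 higher and 1 lower of 30 matched (16.7%, against 4.61% of all tested genes). Tfrc, the transferrin receptor, averaged 1379 ± 66.2 normalized counts in GFP-DUSP6 and 879 ± 129 in GFP (SD, n = 3 each), and its log2 fold change was 0.65 ± 0.09 (SE). Slc11a2, an iron importer, changed by 0.40 ± 0.08, Steap2, a metalloreductase, by 0.38 ± 0.07, and Slc39a14, a zinc and iron importer, by -0.24 ± 0.05 (log2, SE). Fth1, the ferritin heavy chain, was the fourth called higher, and its sign turns when size factors are computed over the listed genes. The edgeR refit passed 3 higher, 2 without GFP-DUSP6 replicate 3 and 0 with size factors from the listed genes.

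In the siRNA contrast 24 of the 178 genes (13.5%) were called in the authors' deposited table, 10 higher and 14 lower, beside 15.0% of all tested genes. Negative acute-phase genes were called lower in 5 of 15 cases (33.3%, against 7.19% of all tested genes called lower) and higher in 0. The median log2 fold change of these 5 was -1.56 in the authors' deposited table. Alb, the albumin gene, had 130, 209 and 183 counts with siDUSP6, against 610, 597 and 800 in NC, and Ttr, Rbp4, Apoa1 and Trf were the others, all genes of plasma transport proteins. Their sizes differed: Alb changed by -1.98 ± 0.16, Ttr by -1.93 ± 0.26, Rbp4 by -0.38 ± 0.08 and Trf by -0.34 ± 0.09 (log2, SE). The median is the value of Apoa1, which had 22, 48 and 39 counts with siDUSP6, against 77, 73 and 165 in NC. Without siDUSP6 replicate 2 the edgeR refit passed 3 of them. Of the 34 positive acute-phase genes 3 were lower and 1 higher, a share of 11.8% beside the 15.0% of all tested genes. The higher call did not pass in 5 of the 6 refits without a library or under either scaling over the listed genes. Lbp, which encodes the lipopolysaccharide binding protein, had 4672, 5213 and 5034 counts with siDUSP6, against 9734, 10254 and 14501 in NC, a log2 fold change of -1.24 ± 0.12 (SE; adjusted p = 1.29e-23 in the authors' deposited table, DESeq2). Every siDUSP6 library was far below every NC library, as for Cp. Serpina1b had a log2 fold change of -1.19 ± 0.27 and Cd14 of -0.48 ± 0.09 (SE). Serpina1b shares 29.5% of its 50-base words with the paralogs Serpina1a, Serpina1c and Serpina1d.

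Of the complement genes other than C3 and C1ra, 2 of 28 components (7.14%) and 3 of 24 regulators and receptors (12.5%) were called with siDUSP6. All tested genes had 15.0%, but the list shares include genes that may not have been tested, so they are not read as fewer calls. The called genes are given as single genes. C4b, a component of the classical pathway, had 49, 43 and 42 counts with siDUSP6, against 6, 6 and 1 in NC, a log2 fold change of 3.29 ± 0.43 (SE). It shares 34.6% of its 50-base words with C4a. Masp1, a protease of the lectin pathway, changed by -0.62 ± 0.10, C4bp, the C4b-binding inhibitor, by -1.12 ± 0.21, Cr1l, a membrane inhibitor of C3 activation in the mouse, by -0.40 ± 0.09 and Clu, a plasma inhibitor of lysis, by 0.25 ± 0.07 (log2, SE).

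Inducers and their signalling proteins had 5 higher and 2 lower of 47 with siDUSP6, a share of 14.9% beside the 15.0% of all tested genes. Nfkb2 changed by 0.41 ± 0.09, the TNF receptor gene Tnfrsf1b by 0.58 ± 0.12, and the hepatocyte transcription factor genes Foxa2 by -0.40 ± 0.08 and Hnf4a by -0.31 ± 0.09 (log2, SE). Stat3, which was not called in the plasmid contrast, Relb and Tnfaip3 were the other genes called higher with siDUSP6. Without siDUSP6 replicate 2 the edgeR refit passed 0 higher, against 4 with all libraries. Of 30 iron and haem genes 2 were higher and 1 lower, a share of 10% beside the 15.0% of all tested genes. Among them Hmox1, the haem oxygenase, changed by 0.42 ± 0.09, the ferrireductase gene Steap3 by 0.52 ± 0.10 and Steap2 by -0.37 ± 0.11 (log2, SE). Steap2 did not pass in the edgeR refit.

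**Figure D5:**
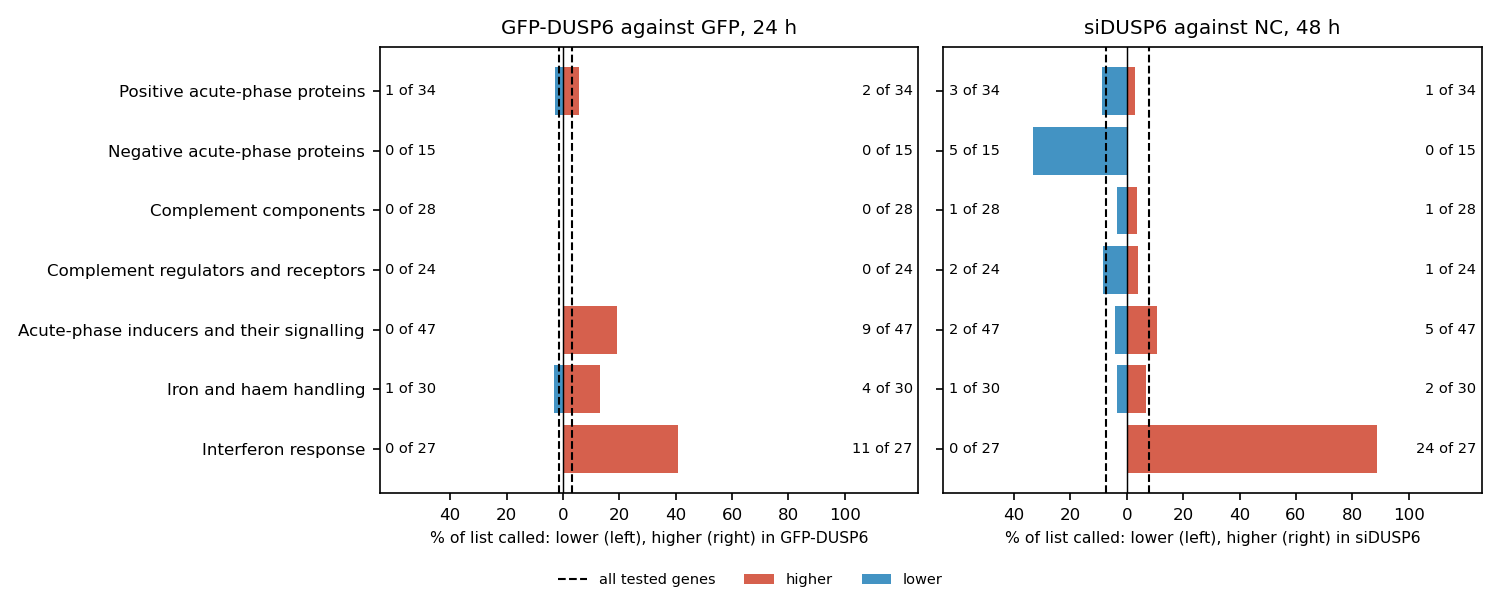
Share of each gene list called higher (right of 0) and lower (left of 0) in the authors' deposited tables, with counts beside the bars and dashed lines for all tested genes, on the left for GFP-DUSP6 against GFP and on the right for siDUSP6 against NC. List shares are over genes matched to an identifier, tested or not. Inducers and their signalling proteins reach 19.1% higher on the left, negative acute-phase proteins 33.3% lower on the right, and interferon response genes 40.7% and 88.9% higher.

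Among the related genes called in both contrasts, Cd14 and Steap2 were higher with GFP-DUSP6 and lower with siDUSP6. Nfkb2, Relb and Tnfaip3 were higher in both. Cd14 averaged 2597 ± 141 normalized counts in GFP-DUSP6 and 1822 ± 45.1 in GFP, and 1277 ± 145 in siDUSP6 and 1785 ± 35.7 in NC (SD, n = 3 each). Tnfaip3 averaged 713 ± 41.3 normalized counts in siDUSP6 and 582 ± 23.8 in NC, a log2 fold change of 0.29 ± 0.09 (SE) beside 0.90 ± 0.06 in the plasmid contrast.

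Interferon response genes had 11 of 27 higher (40.7%, against 3.39% of all tested genes) and 0 lower with GFP-DUSP6, where the 6 genes were higher. With siDUSP6 24 of 27 were higher (88.9%, against 7.76% of all tested genes) and 0 lower, where Lcn2 and C3 were higher and Hp, Cp and C1ra lower. Without GFP-DUSP6 replicate 3 or GFP replicate 3 the edgeR refit passed 6 of the 11. When scaled over the listed genes it passed 6 by TMM and 4 by median of ratios. In the siRNA contrast 24 passed whichever single library was left out and under both of these scalings. Irf7 averaged 1723 ± 360 normalized counts in siDUSP6 and 12.2 ± 4.64 in NC, and Oas3 248 ± 6.30 in GFP-DUSP6 and 101 ± 36.3 in GFP (SD, n = 3 each). Their part in the levels of the 6 genes was not tested. Hepatocyte markers had 1 of 20 higher with GFP-DUSP6, a share of 5% beside the 4.61% of all tested genes. It was Apob (log2 fold change 0.33 ± 0.09, SE), which did not pass under either scaling over the listed genes or in 5 of the 6 refits without a library. With siDUSP6 5 of 20 were lower (25%, against 7.19% of all tested genes), where Alb, Ttr, Apoa1, Hnf4a and Serpina1b fell beside Hp, Cp and C1ra. All 5 were already counted above and are no further result: Alb, Ttr and Apoa1 as negative acute-phase genes, Serpina1b as a positive one and Hnf4a among the inducers. Without siDUSP6 replicate 2 or NC replicate 2 the refit passed 3 of these 5. Whether these falls have a part in those of Hp, Cp and C1ra was not tested. Of 12 stellate cell markers 0 were called in either contrast, beside 4.61% (plasmid) and 15.0% (siRNA) of all tested genes. Of 10 endothelial markers Stab1 was called in the plasmid contrast (1.11 ± 0.13), a share of 10%, and 0 in the siRNA contrast. Of 12 biliary markers 3 were called in each contrast (25%), in both directions. With lists this short these shares are not read further. Spp1 had 0.57 ± 0.08, Krt19 -0.39 ± 0.05 and Sox9 -0.43 ± 0.08 with GFP-DUSP6, and Sox9 had 0.78 ± 0.08, Spp1 -0.53 ± 0.08 and Anxa13 -0.58 ± 0.15 with siDUSP6 (log2, SE).

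The genes whose counts went most like those of each gene over the 6 libraries of a contrast were taken by Pearson correlation of log2(normalized count + 1). The 6 points fall into 2 groups of 3 libraries and share size factors, and the correlations are given as a description. In the plasmid contrast, among 422 or 423 genes, Lcn2 was most like Rpa1, Cxcl5 and Tmem176a (r between 0.997 and 0.998). Saa3 was most like Itgb6, Vcam1 and Maoa, with r of at least 0.994, and C3 like Ccl2 (0.999), Abcc1 and Ikbke. Hp was most like Fgf13, Paics and Bmf, Cp like Mcm8, Gm20186 and Plscr2, and C1ra like Fhod3, Aurka and Gadd45b.

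In the siRNA contrast, Cp was most like Mme, Gclc and Asah1 (r between 0.997 and 0.999). Hp was most like Galns, Stoml2 and Trf, the transferrin gene, with r between 0.985 and 0.991, C1ra like Gm46223, Atp2a2 and Mgst1, Lcn2 like Txndc17, Lad1 and Gpr35, and C3 like Dhx16, Clcn7 and Wdtc1. A gene of like pattern need not have a like size of change: beside the log2 fold change of 4.13 of Lcn2, that of Cxcl5 was 3.92 ± 0.21 and that of Rpa1 0.55 ± 0.07 (SE).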

How the data were processed

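RNA sequencing counts were taken from 2 tables of 6 libraries each, with groups and replicate numbers from the sample titles. Per the submitters' processing notes the authors used DESeq2 and the mm10 build; aligner, counting tool, annotation and strandedness are not stated there. The authors deposited whole-number counts per gene, log2 fold changes, p-values and adjusted p-values, and in the siRNA table also a mean normalized signal and a linear fold (ratio), per the file headers. Each table lists selected genes: those with an adjusted p under 0.05 and 127 (plasmid) and 191 (siRNA) without one. The adjusted p-values imply 12592 and 13102 tested genes. Because unlisted genes are missing, the authors' adjusted p decides calls. Size factors of whole libraries were recovered from the deposited mean signal (siRNA) and from 489 genes above 200 counts in each library, using their deposited fold changes (plasmid; largest error 0.000651, log2). The printed log2 fold changes and SE are those of an edgeR 4.0.16 quasi-likelihood refit over the whole table (R 4.3.3, filterByExpr minimum count 10, Benjamini-Hochberg over the implied number of genes), tested on simulated data; its dispersion rests on selected genes. Alternatives were scaling over listed genes, DESeq2 1.42.0, no filter, a replicate block and leaving out each library, and, added after seeing the data, the transcript length. The genes and lists were chosen with earlier results of these data known, so no list is independent evidence. Named genes were Dusp6, the 6 genes, in each list the 4 called genes of smallest adjusted p at most, and for each of the 6 the 3 most like in pattern with a mean of at least 50; other names were added after their values were seen. No replicate pair was a duplicate: chi-square over its degrees of freedom was 3.89 to 25.7. Positions are from GENCODE M21 and promoters from RefSeq. 1 gene of the positive acute-phase list is counted with its list and not reported here by name.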

Additional observations from a re-analysis of the deposited data

How the results depend on the processing

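No alternative turned the sign of a fold change of the 6 genes (11 values, 132 recomputations), and 122 moved by less than the replicate SD. Leaving out a library could not turn a sign, because the groups do not overlap for any of the 11 values. The DESeq2 refit and the authors' fold changes rest on the same counts and size factors, so they are no independent check either. Size factors taken from listed genes only (TMM, median of ratios) shifted all log2 fold changes by a median of -0.30 and -0.32 in the plasmid contrast and -0.05 and -0.10 in the siRNA contrast; these genes were selected as changed, so that scaling is no neutral check. Under TMM and median of ratios the plasmid values were 0.80 and 0.77 for Hp, 0.41 and 0.38 for Cp, 1.76 and 1.74 for C3 and 1.16 and 1.13 for C1ra, and 3.81 for Lcn2 under median of ratios. Without single libraries Saa3 ranged from 2.94 to 3.68 and Hp after siRNA from -1.46 to -0.81. The edgeR refit called 529 genes in the plasmid contrast (580 in the deposited table), 213 with TMM and 200 with median of ratios, and 199 (without GFP-DUSP6 replicate 3) to 510 without single libraries; 75.6% of calls were higher, against 26.8% and 22.0% under those scalings. In the siRNA contrast it called 1605 (1959 deposited), and 694 (without siDUSP6 replicate 2) to 1408 without single libraries, with 53.0% higher, against 40.4% and 33.9%. Of the related lists 17 genes were called in the authors' table and 16 in the edgeR refit of the plasmid contrast, and the refit called 8 under TMM scaling, 6 under median of ratios and 11 (without GFP-DUSP6 replicate 3) to 15 without single libraries. For siRNA the authors' table called 24 and the refit 22, with 10 (without siDUSP6 replicate 2) to 20 without single libraries. With the replicate number as a block 584 and 1967 genes were called. Each of the 11 values kept its side of the threshold, which is no support, since the 6 genes were chosen in these libraries. The replicate numbers were not taken to pair libraries, because the labels do not say so. Deviations of same-numbered libraries correlated at 0.348, 0.366 and 0.012 in the plasmid contrast, and those of other pairs between -0.378 and 0.016. In the siRNA contrast the same-numbered values were 0.374, 0.094 and 0.18, and the others lay between -0.281 and 0.154. Some same-numbered libraries thus deviated alike, and these values do not settle whether libraries were paired. The low counts of Hp, C1ra and Saa3 limit their precision.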
